A study of Homo sapiens with 6 samples.

Results

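Of the 26931 symbols in the deposited tables, 70 are described here. Most encode lysosomal hydrolases and their activators, lysosomal membrane proteins, the MiT transcription factors or subunits of the vacuolar proton pump (V-ATPase). The other 4 are pseudogene, antisense or readthrough symbols: ATP6V0CP3, ATP6V0E2-AS1, ATP6V1B1-AS1 and ATP6V1G2-DDX39B. The 70 were chosen by symbol: 44 came from a list of lysosomal genes and 26 were all symbols that begin with ATP6V0 or ATP6V1. The list was chosen by function with earlier results of these libraries known, namely the FPKM values with siEWSR1, siFLI1 and siNeg. The members' changes over siNeg are therefore a description, and a count of called members is no independent evidence for a change of the class.

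Lysosomes are acidic compartments in which proteases, glycosidases, sulfatases and lipases break down material delivered by endocytosis and autophagy, and the V-ATPase keeps them acidic by pumping protons. The pump has a cytosolic V1 sector, which hydrolyses ATP, and a membrane V0 sector, which carries the protons. TFEB, TFE3 and MITF are related basic helix-loop-helix factors that switch on many lysosomal genes through a promoter element called CLEAR, whose core is an E-box with the letters CACGTG.

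All libraries came from TC32, an established Ewing sarcoma cell line; such tumours usually carry a fusion of EWSR1, an RNA-binding protein gene, with FLI1, an ETS transcription factor gene. Cells were transfected with siRNA against EWSR1 (siEWSR1), siRNA against FLI1 (siFLI1) or the control siRNA siNeg, and total RNA was taken after 48 h, with 2 libraries per group and 6 in all. The measurement was RNA sequencing of whole cultures of 1 line, given as FPKM, a level corrected for transcript length and for the size of the library, so levels can be compared between genes. The labels do not say that the libraries of a group came from separate cultures, so each test measures only the spread between these libraries, which may be technical.

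EWSR1 stood at 34.6 and 32.3 FPKM with siEWSR1 and 51.2 and 50.2 with siFLI1, against 46.5 and 47.2 with siNeg; FLI1 stood at 10.4 and 10.6 with siEWSR1 and 8.98 and 8.56 with siFLI1, against 10.9 in both siNeg libraries. Each gene was lowest with its own siRNA. Reads of a fusion transcript count toward either gene, and the labels do not state which exons the siRNAs target. Fragments implied by the deposited intervals summed to 15159073 to 16298374 per library, which are not library sizes. For abundant genes they did not follow FPKM. PSAP had 2067 implied fragments at 160 FPKM in siNeg replicate 1 and 2225 at 372 FPKM in siEWSR1 replicate 1. All 8 Ewing sarcoma markers reached an FPKM of 1, summing to 396 to 478 FPKM with siEWSR1, 431 to 463 with siFLI1 and 744 to 765 with siNeg. No marker of blood cells (8 genes), osteoclasts (5), melanocytes (5), kidney intercalated cells (3) or endothelium (4), types rich in lysosomes or in cell-type-specific proton pump subunits, reached an FPKM of 1 in any library. CALCR and DCSTAMP of osteoclasts were listed at 0 in every library, and no such list summed to more than 1.29 FPKM in a library. The 5 epithelial markers, mostly KRT18, summed to 24.7 to 26.6 FPKM with siEWSR1 and 28.2 to 28.5 with siFLI1, against 21.7 to 21.8 with siNeg, and their part in the results was not tested.

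Most of the measured members stood higher with either siRNA than with siNeg. A gene was tested when it reached an FPKM of 1 in at least 2 libraries, and called when its adjusted p in limma, adjusted over all 13043 genes tested, was under 0.05; 62 of the 70 symbols were tested. With siEWSR1, 46 members were higher, where 33.2% of all tested genes were, and 6 were lower, where 31.0% of all were. The median log2 change of the 62 was 0.43, against 0.01 over all tested genes. With siFLI1, 44 were higher against a background of 35.7%, and 4 were lower against 29.6%, with a median of 0.50 against 0.04. Called rises of at least 2-fold numbered 10 with siEWSR1 (7.91% of all tested genes) and 14 with siFLI1 (9.32%). Antisense and readthrough symbols made up 2 of the 46, 1 of the 44 and 1 of the 10. The members were chosen with these contrasts known, so the background shares are printed for scale and nothing is read from the difference.

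Both comparisons use the same siNeg libraries, which ties their results to each other. Listed side by side, 42 members were called higher with both siRNAs, 4 lower with both, 8 with neither, and 0 in opposite directions. Joint counts of this kind were not made over all tested genes, so they cannot show a trait of the members. Nothing is read from the shared direction. In RNA from whole cultures, a change in the share of cells that express a gene and a change in RNA per cell cannot be told apart. The 8 symbols not tested were ATP6V0A4, ATP6V0CP3, ATP6V0D2, ATP6V1B1-AS1, ATP6V1C2, ATP6V1G3, CTSZ and MITF. Of these, ATP6V1C2 was highest, at no more than 0.738 FPKM in any library, while ATP6V0CP3 and ATP6V1G3 were listed at 0 in all 6. CTSZ, a carboxypeptidase of the cathepsin family, lay between 0 and 0.105 FPKM, far below its relatives.

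**Figure D1:**
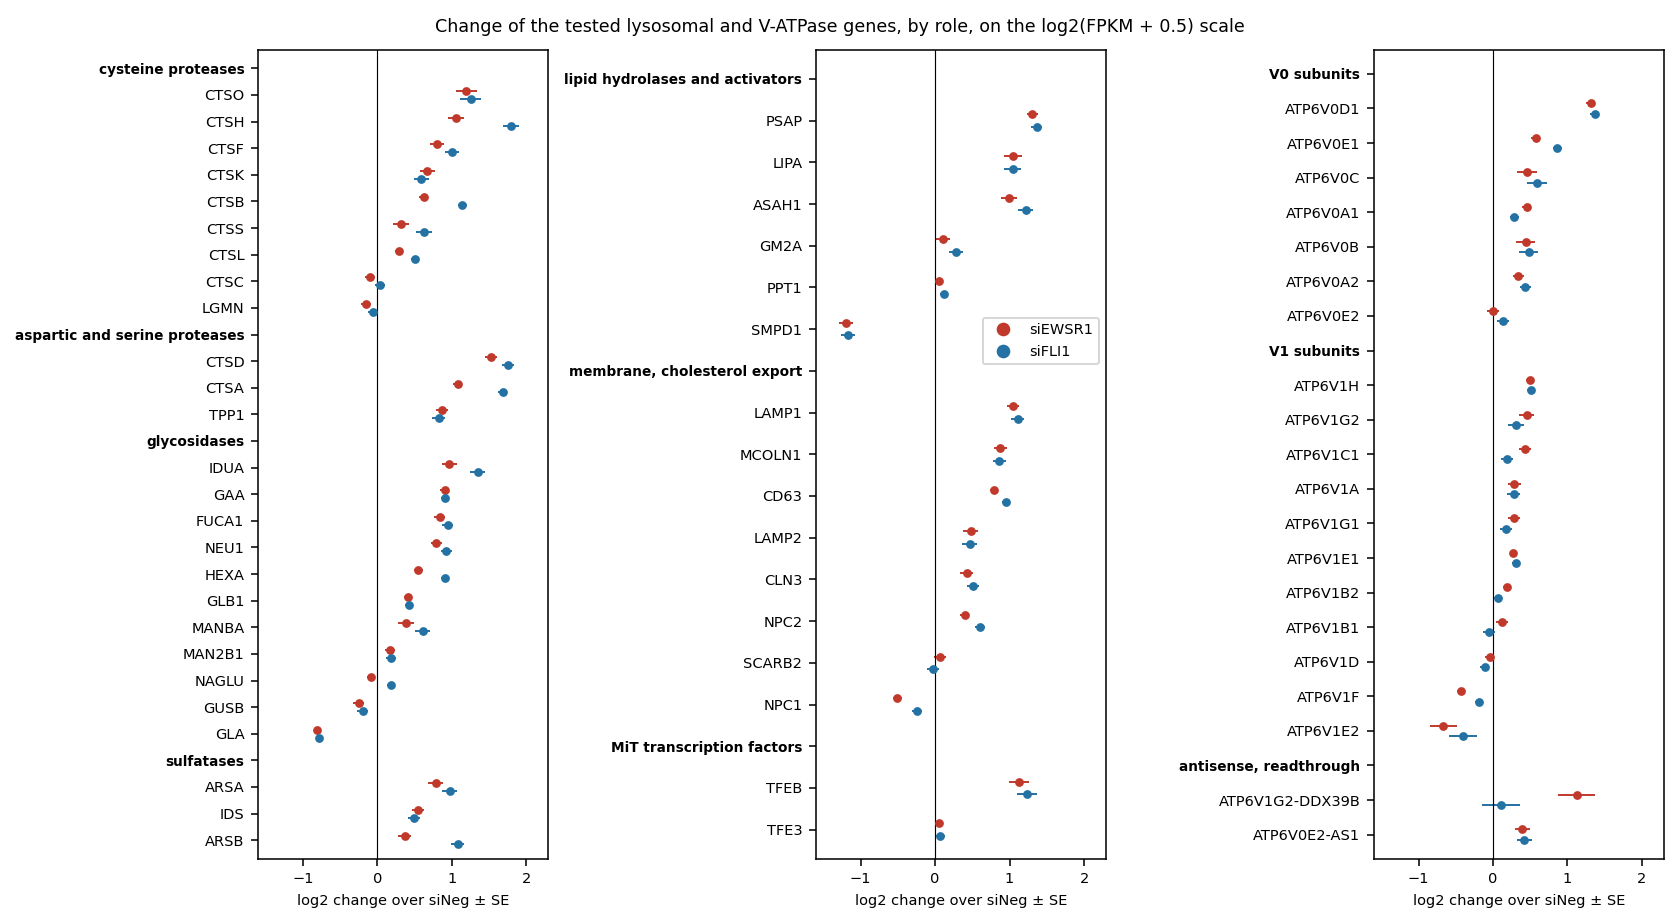
Log2 change over siNeg (x axis, log2(FPKM + 0.5) scale) of the 62 tested members, grouped by role, with siEWSR1 (red) and siFLI1 (blue); bars are standard errors from the fit. Most points lie right of 0, SMPD1 and GLA lie furthest left with both siRNAs, and the V1 subunits stay between -0.67 and 0.51.

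Promoter letters are shown here to mark where the CLEAR core stands in some members. The genes shown are examples and not a sample of the members. Members that rose without the core, among them CTSH, LIPA and TFEB, are not shown. Of the 30 tested members without it, 18 were called higher in each comparison. The windows come from RefSeq on GRCh38.p14, another build than the hg19 of the FPKM files, and each is written 5′ to 3′ on the strand of its gene with every CACGTG in capitals. The LAMP1 window runs 200 bases before to 20 after the annotated start (chr13:113297039-113297258, plus strand), and the others 90 before to 20 after. They are CTSA (chr20:45891245-45891354, plus strand), MCOLN1 (chr19:7522534-7522643, plus strand), CTSD (chr11:1763908-1764017, minus strand) and ATP6V0D1 (chr16:67481138-67481247, minus strand), all called higher with both siRNAs. The last pair, SMPD1 (chr11:6390384-6390493, plus strand) and GLA (chrX:101407906-101408015, minus strand), had the lowest changes of all members.
LAMP1: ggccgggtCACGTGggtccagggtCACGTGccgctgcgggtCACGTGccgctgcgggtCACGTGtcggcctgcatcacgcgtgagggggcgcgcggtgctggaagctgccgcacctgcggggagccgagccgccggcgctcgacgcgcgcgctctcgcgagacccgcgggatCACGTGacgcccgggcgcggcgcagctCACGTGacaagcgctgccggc
CTSA: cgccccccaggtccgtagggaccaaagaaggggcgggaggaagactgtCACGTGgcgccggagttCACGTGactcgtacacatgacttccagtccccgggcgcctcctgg
MCOLN1: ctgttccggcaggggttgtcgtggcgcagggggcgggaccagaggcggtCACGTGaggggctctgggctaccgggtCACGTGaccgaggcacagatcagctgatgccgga
CTSD: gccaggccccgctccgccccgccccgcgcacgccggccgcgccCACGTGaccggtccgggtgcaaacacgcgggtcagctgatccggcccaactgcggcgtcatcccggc
ATP6V0D1: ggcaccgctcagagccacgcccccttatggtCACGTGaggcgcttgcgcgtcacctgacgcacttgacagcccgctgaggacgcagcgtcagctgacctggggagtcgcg
SMPD1: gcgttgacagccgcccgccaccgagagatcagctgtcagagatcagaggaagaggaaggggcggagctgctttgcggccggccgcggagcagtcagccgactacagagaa
GLA: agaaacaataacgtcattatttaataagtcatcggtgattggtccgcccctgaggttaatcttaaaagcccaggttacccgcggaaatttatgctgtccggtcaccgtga

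LAMP1 held 6 copies of the core, CTSA and MCOLN1 2 each, and CTSD and ATP6V0D1 1 each, while the SMPD1 and GLA stretches held 0. Across full windows of 250 bases before to 50 after a start, 50 members had a RefSeq promoter and 14 of them (28.0%) held CACGTG, against 8.77% of 27305 symbols. They were ARSB, ATP6V0B, ATP6V0D1, ATP6V0E2, ATP6V1G1, CD63, CLN3, CTSA, CTSD, CTSF, GAA, LAMP1, MCOLN1 and NEU1. The core is its own reverse complement, so both strands were searched at once. Its longer form TCACGTGA, which contains the core and is likewise palindromic, stood in 7 members (14.0%), against 1.18% of symbols. GGAAGGAA, a pair of the GGAA units that ETS factors bind, searched on both strands, stood in 4 members (8.00%: ARSB, FUCA1, NPC1 and NPC2), against 4.50% of symbols. The 27305 symbols were not limited to tested genes, whereas 44 of the 50 members were tested, so these shares come from unlike sets. Among all tested genes with a promoter, 1233 held CACGTG and 8435 did not, and 229 held TCACGTGA and 9439 did not.

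Members with the core in their window had a median log2 change of 0.80 with siEWSR1 and 0.94 with siFLI1; 13 of the 14 were called higher with siEWSR1 and 12 with siFLI1, and none was called lower. The 30 tested members without it had medians of 0.31 and 0.30, with 18 called higher in each comparison and 5 and 4 called lower. Over all tested genes with a promoter the gap was small: 34.7% of 1233 genes with the core and 32.9% of 8435 without it were called higher with siEWSR1, and 37.5% and 35.3% with siFLI1. For the longer form TCACGTGA the gap was wider, at 42.4% of 229 genes with it and 32.9% of 9439 without it with siEWSR1, and 45.0% and 35.4% with siFLI1. Of the 7 members with TCACGTGA, 7 were called higher with siEWSR1 and 6 with siFLI1, against 24 of the 37 without it in each comparison. No test was made of these splits, since the members were chosen with their changes in view, and a match of letters is not evidence of binding. TFEB had 3 windows, and TFEB, TFE3, CTSH, LIPA and IDUA held no CACGTG in theirs.

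**Figure D2:**
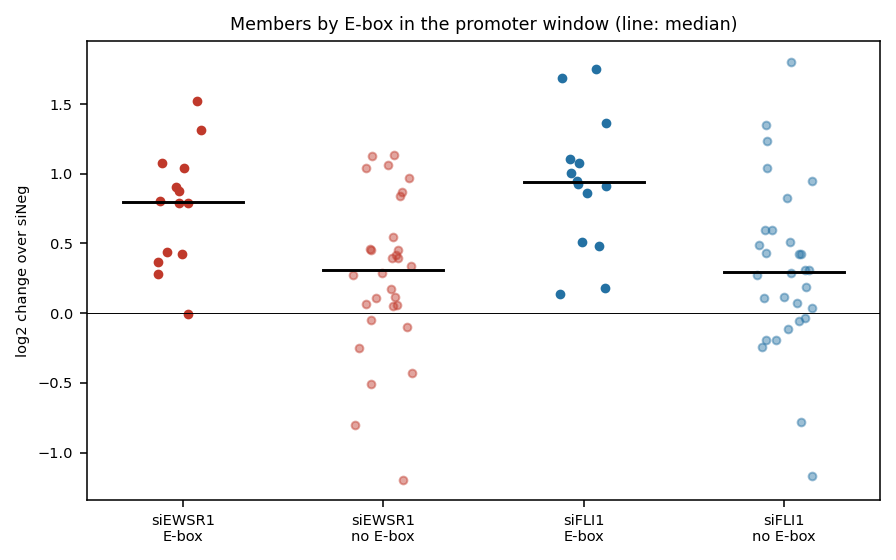
Log2 change over siNeg (y axis, log2(FPKM + 0.5) scale) of the 44 tested members with a RefSeq promoter, split by siRNA and by whether the window holds the E-box core CACGTG; points are genes and black lines medians. The medians are 0.80 with the core and 0.31 without it for siEWSR1, and 0.94 and 0.30 for siFLI1, and the lowest gene with the core is ATP6V0E2, at -0.00 with siEWSR1 and 0.14 with siFLI1.

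Over all tested genes, 33.2% were called higher and 31.0% lower with siEWSR1, and 35.7% and 29.6% with siFLI1. The counts by role given from here on stand beside these shares. The roles are small, and nothing is read from their counts. All 3 aspartic and serine proteases rose with each siRNA. CTSD encodes cathepsin D, the main aspartic protease of the lysosome (hg19, chromosome 11, 1773982 to 1785222). It stood at 130.4 and 129 FPKM with siEWSR1 and 144 and 161 with siFLI1, against 42.1 and 47.6 with siNeg. Both siRNA groups lay wholly above the control, and log2 changes were 1.52 ± 0.08 (SE from the fit) with siEWSR1 and 1.75 ± 0.08 with siFLI1, that is 2.87-fold and 3.37-fold. CTSA encodes protective protein, a serine carboxypeptidase that also stabilises the enzymes encoded by NEU1 and GLB1 (chromosome 20, 44518783 to 44527458). It had 29.1 and 29.7 FPKM with siEWSR1 and 43.3 and 46.9 with siFLI1, against 13.2 and 14.1 with siNeg. The groups formed 3 separate levels, siFLI1 highest; the gene overlaps NEURL2 and PLTP, and the labels name no strand setting, so reads of overlapping genes cannot be assigned with certainty. TPP1, the tripeptidyl peptidase lost in a neuronal ceroid lipofuscinosis, rose by 0.87 ± 0.08 and 0.83 ± 0.08 on the log2 scale with siEWSR1 and siFLI1.

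Of 9 tested cysteine proteases, 7 rose with each siRNA and 0 fell. CTSB encodes cathepsin B, the most abundant of them. It stood at 109 and 114 FPKM with siEWSR1 and 154 and 166 with siFLI1, against 74.2 and 69.9 with siNeg. Again the 3 groups did not overlap; the log2 changes were 0.62 ± 0.06 and 1.14 ± 0.06. CTSH, an aminopeptidase, was scarce, at 2.92 and 2.94 FPKM with siEWSR1 and 5.79 and 4.71 with siFLI1, against 1.22 and 1.08 with siNeg. Its log2 changes of 1.06 ± 0.11 and 1.80 ± 0.11 included the largest of any member with siFLI1. CTSO (1.20 ± 0.14 and 1.26 ± 0.14), CTSF (0.81 ± 0.09 and 1.00 ± 0.09), CTSK, the collagen-degrading protease of osteoclasts (0.67 ± 0.10 and 0.59 ± 0.10), and CTSL (0.29 ± 0.05 and 0.51 ± 0.05) were called higher with both. CTSC, which activates serine proteases of blood cells, and LGMN, an asparaginyl endopeptidase, were called with neither and lay between -0.15 and 0.04. CTSS, a protease of antigen-presenting cells, was called higher with both at 0.32 ± 0.11 and 0.63 ± 0.11, but at 1.14 FPKM or less in every library it turned to -0.33 with siEWSR1 (adjusted p = 0.079) and shrank to 0.03 with siFLI1 (adjusted p = 0.87) under quantile normalization. Its siEWSR1 call was also lost without any 1 library (adjusted p = 0.0568 to 0.178), with median centring (0.0573), with the replicate block (0.0614) and with only the 4 libraries compared (0.0619).

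Among 11 glycosidases, 8 rose and 2 fell with siEWSR1, and 9 rose and 1 fell with siFLI1. IDUA, the iduronidase of heparan and dermatan sulfate breakdown, rose by 0.97 ± 0.10 and 1.35 ± 0.10 on the log2 scale. It is scarce and overlaps SLC26A1, and quantile normalization left 0.42 and 0.77. GAA, which degrades glycogen and is deficient in Pompe disease, rose by 0.91 ± 0.06 with each siRNA. FUCA1 (0.84 ± 0.07 and 0.95 ± 0.07), the sialidase NEU1 (0.79 ± 0.07 and 0.93 ± 0.07), HEXA, the alpha chain of hexosaminidase (0.55 ± 0.06 and 0.91 ± 0.06), the mannosidase MANBA (0.39 ± 0.10 and 0.61 ± 0.10) and the galactosidase GLB1 (0.42 ± 0.05 and 0.43 ± 0.05) rose with both. The MANBA call with siEWSR1 was lost without siNeg replicate 2 (adjusted p = 0.0962), without siEWSR1 replicate 2 (0.0554) and with quantile normalization (0.0699). MAN2B1, an alpha-mannosidase, was called with both at a small change (0.17 ± 0.06 and 0.19 ± 0.06). Its siEWSR1 call was lost in 10 of 16 alternatives (adjusted p = 0.0571 to 0.218), among them 5 of the 6 left-out libraries, and its siFLI1 call in 7 (0.0519 to 0.177), among them every left-out siFLI1 or siNeg library. NAGLU, of heparan sulfate breakdown, was called with siFLI1 (0.19 ± 0.06) and not with siEWSR1 (-0.08 ± 0.06), and the difference between the siRNAs was not called (-0.27 ± 0.06, adjusted p = 0.0575). The siFLI1 call was lost without any 1 siFLI1 or siNeg library (0.0697 to 0.132) and with quantile normalization (0.0824) or median centring (0.079).

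GLA went the other way. It encodes alpha-galactosidase A, the enzyme deficient in Fabry disease (chromosome X, 100652779 to 100663001), and overlaps the readthrough gene RPL36A-HNRNPH2. It stood at 31.0 and 29.9 FPKM with siEWSR1 and 31.0 in both siFLI1 libraries, against 53.4 and 53.7 with siNeg. All 4 siRNA libraries lay close together below both controls, and GLA fell by 0.81 ± 0.05 and 0.78 ± 0.05 on the log2 scale, 1.75-fold and 1.71-fold. GUSB, beta-glucuronidase, had 18.6 and 16.3 FPKM with siEWSR1 and 18.7 and 17.5 with siFLI1, against 20.6 and 20.9 with siNeg. It was called lower with siEWSR1 (-0.25 ± 0.08) and not with siFLI1 (-0.19 ± 0.08), and the siEWSR1 call was lost without siNeg replicate 1 (adjusted p = 0.0959), siNeg replicate 2 (0.11) or siEWSR1 replicate 2 (0.109, change -0.15), with no filter (0.0564) and with quantile normalization (0.0758). All 3 tested sulfatases were called higher with each siRNA. The ARSB call with siEWSR1 (0.37 ± 0.09) was lost without siNeg replicate 1 (adjusted p = 0.0665), without siEWSR1 replicate 1 (0.0552) and with quantile normalization, which left 0.12 (0.242). ARSA, which degrades sulfatide, changed by 0.78 ± 0.10 and 0.97 ± 0.10, and IDS, an iduronate sulfatase, by 0.54 ± 0.08 and 0.49 ± 0.08.

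The lipid hydrolases and their activators divided. PSAP encodes prosaposin, the precursor of the saposins that help enzymes reach membrane lipids (chromosome 10, 73576040 to 73611132), and it was the most abundant member. It stood at 372 and 419 FPKM with siEWSR1 and 397 and 426 with siFLI1, against 160.2 and 158 with siNeg. No siRNA library came near the controls, at 1.31 ± 0.07 and 1.37 ± 0.07 on the log2 scale, 2.47-fold and 2.58-fold. LIPA, the acid lipase of cholesteryl esters, had 20.9 and 24.0 FPKM with siEWSR1 and 19.99 and 25.0 with siFLI1, against 10.9 and 10.3 with siNeg. ASAH1, acid ceramidase, had 9.04 and 11.1 FPKM with siEWSR1 and 11.4 and 12.2 with siFLI1, against 4.98 and 4.60 with siNeg, and overlaps an uncharacterised locus. Both rose with either siRNA, LIPA by 1.04 ± 0.12 in each comparison and ASAH1 by 0.99 ± 0.10 and 1.22 ± 0.10.

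SMPD1, acid sphingomyelinase (chromosome 11, 6411644 to 6416228), had the largest fall of any member. It stood at 27.1 and 22.9 FPKM with siEWSR1 and 25.2 and 25.4 with siFLI1, against 61.5 and 54.1 with siNeg. The siRNA groups overlapped each other and lay far below the control, and SMPD1 fell by 1.19 ± 0.10 and 1.17 ± 0.10 on the log2 scale, 2.29-fold and 2.25-fold. ASAH1 and SMPD1 act next to each other in sphingolipid breakdown, ceramidase on the ceramide that sphingomyelinase releases, and they moved in opposite directions. PPT1, a thioesterase that removes palmitate from proteins, was called with neither siRNA (0.06 ± 0.05 and 0.11 ± 0.05). GM2A, the activator of GM2 ganglioside hydrolysis, was called with siFLI1 (0.28 ± 0.09) and not with siEWSR1 (0.11 ± 0.09). The siFLI1 call was lost without siNeg replicate 1 (0.18, adjusted p = 0.205), without siFLI1 replicate 2 (0.18, 0.202), with quantile normalization (0.17, 0.14), with median centring (0.0736), with no filter (0.084) and when genes averaging an FPKM under 5 were left out (0.0524).

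**Figure D3:**
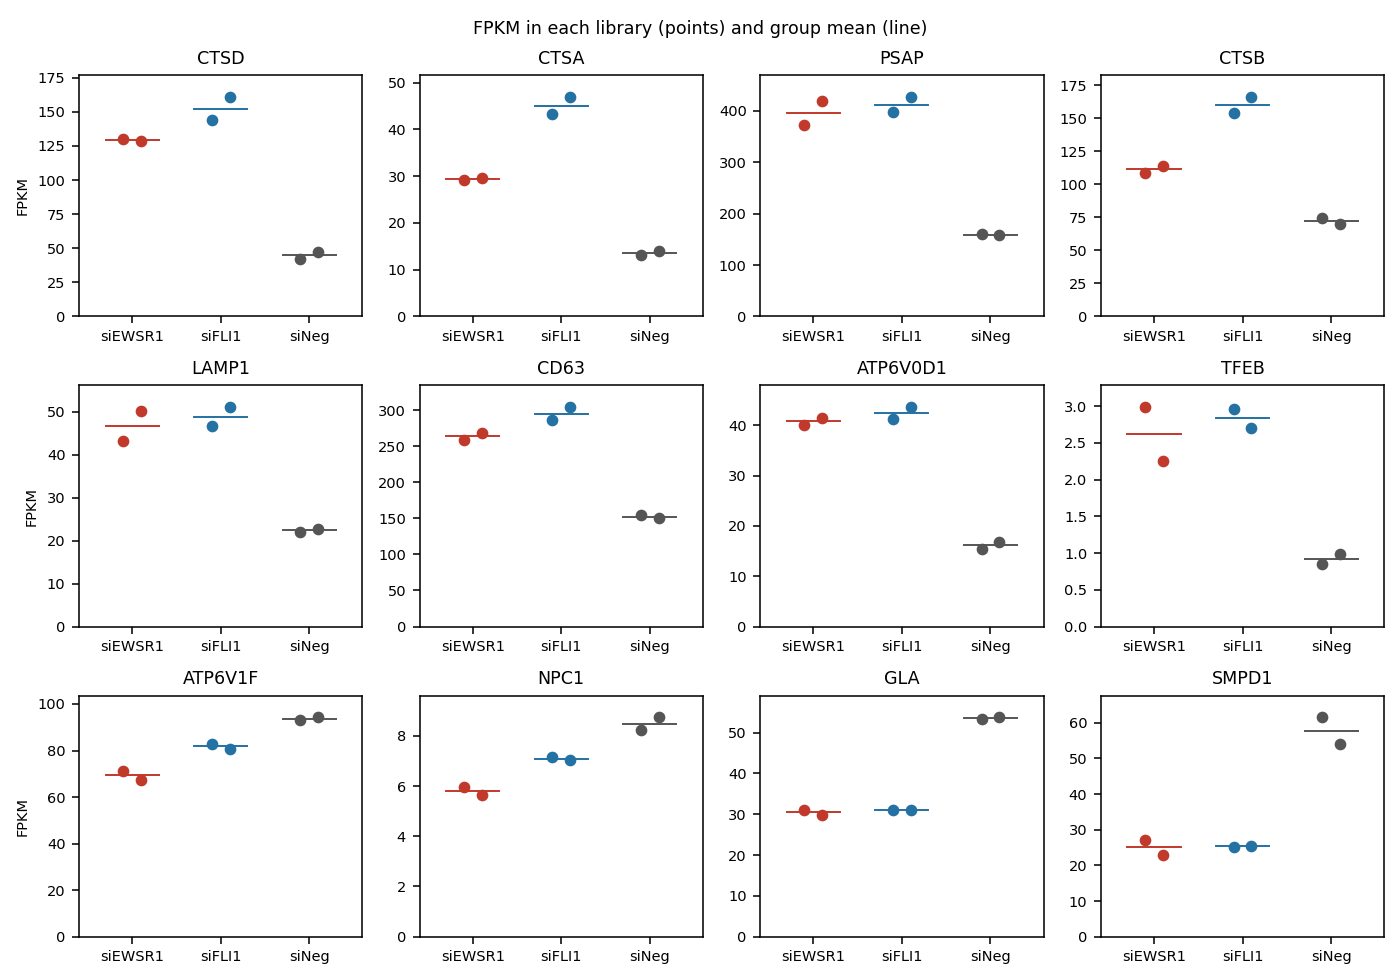
FPKM (y axis, linear, from 0) of 12 members in each library, with points for the 2 libraries of siEWSR1, siFLI1 and siNeg and a line for the group mean. CTSD, CTSA, PSAP, CTSB, LAMP1, CD63, ATP6V0D1 and TFEB are higher in all 4 siRNA libraries than in both siNeg libraries, and ATP6V1F, NPC1, GLA and SMPD1 are lower.

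Of 8 membrane and cholesterol export proteins, 6 rose and 1 fell with each siRNA. LAMP1 and MCOLN1 are given per library although the naming rule did not take them, as a choice made after their values were seen. LAMP1, a main glycoprotein of the lysosomal membrane (chromosome 13, 113951469 to 113977741), stood at 43.3 and 50.2 FPKM with siEWSR1 and 46.7 and 51.1 with siFLI1, against 22.1 and 22.7 with siNeg. CD63, a tetraspanin of late endosomes and exosomes and the second most abundant member, stood at 259 and 268 FPKM with siEWSR1 and 286 and 304 with siFLI1, against 155 and 149.9 with siNeg. For both genes the siRNA libraries lay above the controls, with log2 changes of 1.04 ± 0.08 and 1.11 ± 0.08 for LAMP1 and 0.79 ± 0.05 and 0.95 ± 0.05 for CD63. MCOLN1, a calcium channel of the lysosome that acts upstream of TFEB, had 5.32 and 5.25 FPKM with siEWSR1 and 5.17 and 5.29 with siFLI1, against 2.41 and 2.91 with siNeg. LAMP2, needed for fusion with autophagosomes, rose less than LAMP1, by 0.48 ± 0.10 and 0.46 ± 0.10, and CLN3 by 0.42 ± 0.09 and 0.51 ± 0.09. SCARB2, the carrier of glucocerebrosidase, was not called (0.06 ± 0.08 and -0.03 ± 0.08).

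The cholesterol exporters NPC1 and NPC2, which hand cholesterol to each other and are lost in Niemann-Pick disease type C, moved apart. NPC1 stood at 5.97 and 5.66 FPKM with siEWSR1 and 7.15 and 7.03 with siFLI1, against 8.22 and 8.74 with siNeg, while NPC2 rose by 0.39 ± 0.07 and 0.60 ± 0.07 on the log2 scale. NPC1 was lowest with siEWSR1 and between the other groups with siFLI1, at changes of -0.51 ± 0.06 and -0.24 ± 0.06; the gene overlaps C18orf8. Its siFLI1 call was lost without siNeg replicate 2 (adjusted p = 0.0942), siFLI1 replicate 1 (0.0543) or siFLI1 replicate 2 (0.0717).

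Among the MiT factors the measured increase was that of TFEB. TFEB (chromosome 6, 41651716 to 41703997) had 2.98 and 2.25 FPKM with siEWSR1 and 2.96 and 2.70 with siFLI1, against 0.845 and 0.983 with siNeg. TFE3 had 19.5 and 18.8 FPKM with siEWSR1 and 19.1 and 19.5 with siFLI1, against 17.9 and 18.9 with siNeg. MITF, the melanocyte factor, stayed between 0.159 and 0.315 FPKM and was not tested. TFEB thus lay above the controls in all 4 siRNA libraries, at 1.13 ± 0.13 and 1.24 ± 0.13, whereas TFE3, the most abundant of these factors in every library, was not called (0.05 ± 0.06 and 0.07 ± 0.06). The files hold RNA levels only, and the activity of these factors depends largely on phosphorylation and entry to the nucleus, which was not measured.

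Over the 18 tested V-ATPase subunits the median log2 change was 0.31 with siEWSR1 and 0.28 with siFLI1, against 0.55 and 0.73 over the 42 tested genes of the lysosomal list, a gap that was not tested. Of 7 tested V0 subunits, 6 rose and 0 fell with each siRNA, with median log2 changes of 0.45 and 0.48. Of 11 tested V1 subunits, 7 rose and 2 fell with siEWSR1 (median 0.27), and 4 rose and 1 fell with siFLI1 (median 0.18). The V1 share called higher with siFLI1, 36.4%, was near the 35.7% of all tested genes, so that count says little about V1. The share called lower was 9.09%, against 29.6%. Summed over the V0 subunits taken by symbol, FPKM came to 282 and 262 with siEWSR1 and 302 and 301 with siFLI1, against 179 and 185 with siNeg. The V1 sum came to 252 and 257 with siEWSR1 and 256 and 263 with siFLI1, against 251 and 249 with siNeg. All 4 siRNA libraries lay above both controls in either sum, by a wide margin in V0 and a narrow margin in V1. ATP6V1F alone offset much of the V1 change: without it the V1 sum was 181 and 189.8 with siEWSR1 and 173 and 182 with siFLI1, against 158 and 155 with siNeg.

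ATP6V0D1, the V0 d subunit that couples the sectors (chromosome 16, 67471917 to 67515089), moved furthest. It had 40.1 and 41.5 FPKM with siEWSR1 and 41.3 and 43.6 with siFLI1, against 15.5 and 16.8 with siNeg. All 4 siRNA libraries lay above both controls, at 1.31 ± 0.06 and 1.37 ± 0.06 on the log2 scale, or 2.48-fold and 2.58-fold. Ranked by FPKM among the 22 subunit genes taken by symbol, ATP6V0D1 stood at 6 and 5 with siEWSR1. It stood at 6 in both siFLI1 libraries, against 9 in both siNeg libraries. The next V0 changes were those of ATP6V0E1 (0.57 ± 0.06 and 0.86 ± 0.06) and the proteolipid ring subunit ATP6V0C (0.46 ± 0.13 and 0.59 ± 0.13). ATP6V0B, another ring subunit, was called at 0.44 ± 0.13 and 0.48 ± 0.13, lost in both comparisons with no filter (adjusted p = 0.0741 and 0.0559), without siNeg replicate 1 (0.0857 and 0.0662) or without siNeg replicate 2 (0.0956 and 0.0739), and in the siFLI1 comparison also without siFLI1 replicate 1 (0.0974). The ATP6V0C call with siEWSR1 was lost with no filter (0.0651), without siNeg replicate 1 (0.101, change 0.29) and without siEWSR1 replicate 1 (0.0786, change 0.32). That of ATP6V0A2 with siEWSR1 was lost with quantile normalization, which left 0.14 (0.155).

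In V1, the regulatory subunit ATP6V1H rose by 0.50 ± 0.06 and 0.51 ± 0.06 and the stalk subunit ATP6V1E1 by 0.27 ± 0.05 and 0.31 ± 0.05. The catalytic subunit ATP6V1A was called at 0.29 ± 0.09 and 0.28 ± 0.09. Both its calls were lost with no filter (adjusted p = 0.0748 and 0.0818), without siNeg replicate 1 (0.117 and 0.129) or without siNeg replicate 2 (0.107 and 0.118). The siEWSR1 call was lost without siEWSR1 replicate 2 (0.132), and the siFLI1 call without siFLI1 replicate 2 (0.16, adjusted p = 0.188), with quantile normalization (0.071) and with median centring (0.0762). ATP6V1F, the most abundant subunit in siNeg cells, fell. It stood at 71.3 and 67.4 FPKM with siEWSR1 and 82.8 and 80.7 with siFLI1, against 93.0 and 94.2 with siNeg. The 3 groups did not overlap, and changes were -0.43 ± 0.05 and -0.19 ± 0.05; the siFLI1 call was lost without siNeg replicate 1 (adjusted p = 0.062), siNeg replicate 2 (0.0797), siFLI1 replicate 1 (0.0518) or siFLI1 replicate 2 (0.0856), and quantile normalization left -0.08 (0.179). ATP6V1D and ATP6V1B1 were not called with either siRNA. ATP6V1C1, ATP6V1B2 and ATP6V1G1 were called higher with siEWSR1 (0.43 ± 0.08, 0.19 ± 0.05 and 0.28 ± 0.08) and not with siFLI1 (0.18 ± 0.08, 0.06 ± 0.05 and 0.18 ± 0.08), and none of the 3 was called between the siRNAs. The siEWSR1 calls of ATP6V1B2 and ATP6V1G1 were lost without siNeg replicate 1 (adjusted p = 0.0863 and 0.0592), siNeg replicate 2 (0.0806 and 0.107) or siEWSR1 replicate 2 (0.0704 and 0.0856), and that of ATP6V1G1 also with no filter (0.0516).

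**Figure D4:**
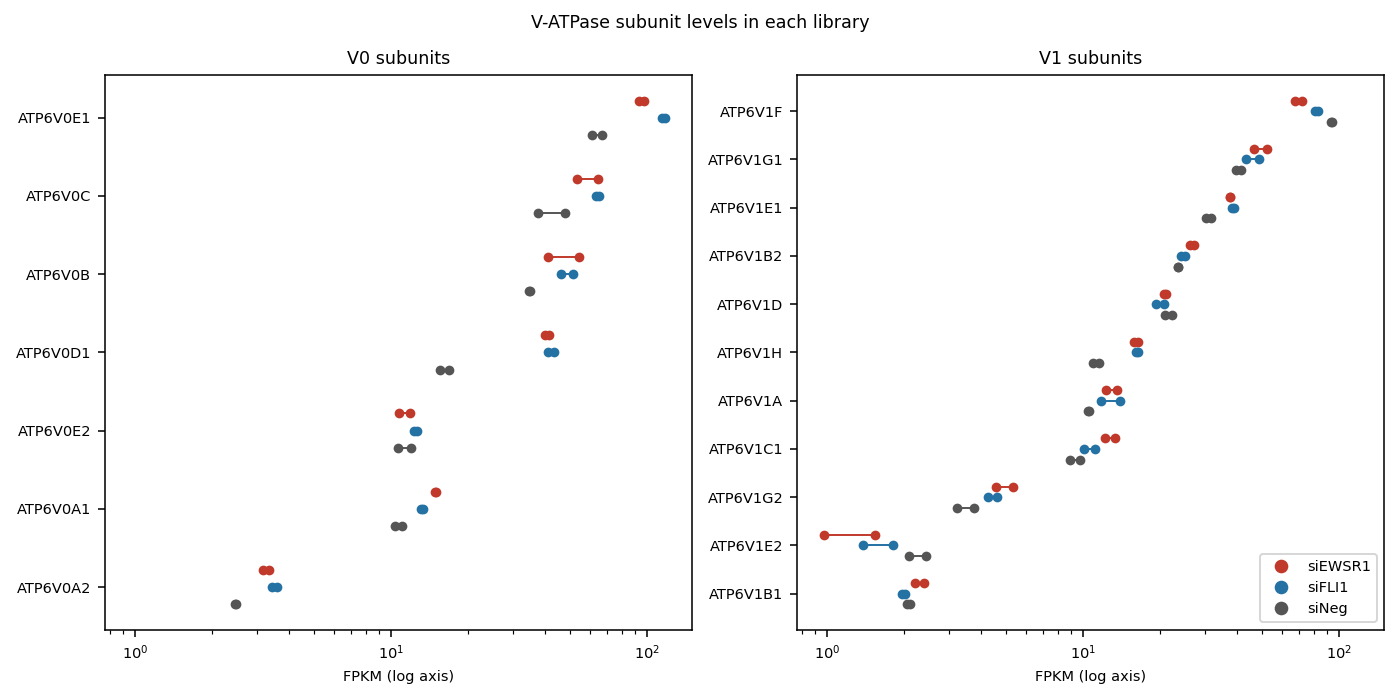
FPKM (x axis, log scale) of the tested V0 (left) and V1 (right) subunits in each library, with siEWSR1, siFLI1 and siNeg from top to bottom within a gene and a line joining the 2 libraries of a group. ATP6V0D1 shows the widest gap between siRNA libraries (40.1 to 43.6) and siNeg libraries (15.5 and 16.8), and ATP6V1F and ATP6V1E2 are the V1 subunits with siNeg on the right.

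Several subunits have paralogs used in different tissues. Families here hold only the genes taken by symbol, and 1 paralog held most of the FPKM of each. TCIRG1, also of the a family, lies outside the symbol rule and is not in the sums. In the a family, ATP6V0A1, the main form in neurons, held 82.3% and 81.6% of the family's FPKM with siEWSR1 and 79.2% and 78.7% with siFLI1, against 81.6% and 80.9% with siNeg; ATP6V0A2 held most of the rest and the kidney form ATP6V0A4 at most 0.152%. The osteoclast form ATP6V0D2 was listed at 0 in 5 libraries and held 0.00429% of the d family in siEWSR1 replicate 1. In the e family, ATP6V0E2 held 11.3% and 9.89% with siEWSR1 and 9.93% and 9.44% with siFLI1, against 13.8% and 16.4% with siNeg, all 4 siRNA libraries below both controls. ATP6V0E2 itself was not called (-0.00 ± 0.08 and 0.14 ± 0.08) while ATP6V0E1 rose, and it overlaps the antisense gene ATP6V0E2-AS1, which was called higher (0.39 ± 0.10 and 0.42 ± 0.10). Both antisense calls were lost with quantile normalization, which left 0.06 (adjusted p = 0.614) and 0.05 (0.712), and without siNeg replicate 2 (0.0662 and 0.0523).

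In the V1 families, ATP6V1B1, the kidney form, held 7.31% to 8.39% of B in the 6 libraries, and ATP6V1C2 held 3.96% to 7.45% of C. ATP6V1G2, a neuronal form that overlaps the readthrough gene ATP6V1G2-DDX39B, held 7.53% to 9.62% of G, and ATP6V1G3 was listed at 0. ATP6V1G2 was called higher with both siRNAs; its siEWSR1 call was lost in 2 alternatives (adjusted p = 0.0539 without siNeg replicate 2, 0.0583 with quantile normalization) and its siFLI1 call in 7 (0.0505 to 0.33). The E family shifted: ATP6V1E2, best known from testis, held 3.95% and 2.52% with siEWSR1 and 4.45% and 3.47% with siFLI1, against 7.41% and 6.20% with siNeg. ATP6V1E2 had 1.54 and 0.971 FPKM with siEWSR1 and 1.81 and 1.38 with siFLI1, against 2.43 and 2.09 with siNeg, all 4 siRNA libraries below both controls. It was called lower with siEWSR1 (-0.67 ± 0.18) and not with siFLI1 (-0.40 ± 0.18); the siEWSR1 call was lost without siEWSR1 replicate 2 (-0.43, adjusted p = 0.0603), without siNeg replicate 1 (0.095) and with no filter (0.0582). ATP6V1G2-DDX39B had 4.55 and 6.24 FPKM with siEWSR1 and 1.72 and 3.26 with siFLI1, against 2.13 and 2.23 with siNeg, and was called higher with siEWSR1 (1.12 ± 0.25) and not with siFLI1 (0.11 ± 0.25). Its reads cannot be told from those of ATP6V1G2 and DDX39B, and the direct difference between the siRNAs was not called (1.02 ± 0.25, adjusted p = 0.078).

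The siRNAs were then compared directly, a contrast that does not use the siNeg libraries other than for the estimate of spread. Of the 62 tested members, 0 were higher with siEWSR1 than with siFLI1, where 0.790% of all tested genes were, and 5 were lower, where 3.07% were (limma, adjusted p under 0.05). The log2 difference was below 0 in 46 members and above 0 in 16, with a median of -0.06 against -0.03 over all tested genes. The median of all tested genes was thus also below 0, and their share below 0 is not given. Nothing is therefore read from the split. The 5 were CTSH (-0.74 ± 0.11, adjusted p = 0.0268), the sulfatase ARSB (-0.71 ± 0.09, 0.0194), CTSA (-0.61 ± 0.06, 0.0134), CTSB (-0.52 ± 0.06, 0.017) and HEXA (-0.36 ± 0.06, 0.0321).

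ARSB, an arylsulfatase of dermatan sulfate breakdown, had 2.48 and 2.25 FPKM with siEWSR1 and 3.94 and 4.44 with siFLI1, against 1.67 and 1.77 with siNeg. HEXA, which overlaps HEXA-AS1, had 34.2 and 35.2 FPKM with siEWSR1 and 43.1 and 46.2 with siFLI1, against 23.8 and 23.2 with siNeg. In each of the 5 genes the siEWSR1 libraries lay between the siFLI1 and siNeg libraries without overlap. The calls rest on both siFLI1 libraries and were lost without either. Without siFLI1 replicate 1 the differences were -0.60 for CTSH, -0.79 for ARSB, -0.66 for CTSA, -0.57 for CTSB and -0.41 for HEXA. Without siFLI1 replicate 2 they were -0.87, -0.63, -0.55, -0.47 and -0.31. Either fit leaves 1 siFLI1 library, and calls between the siRNAs were then far rarer over all tested genes too. The loss is therefore not particular to these 5 genes. For CTSD the difference was -0.23 ± 0.08 (adjusted p = 0.153), for PSAP -0.06 ± 0.07 (0.664) and for TFEB -0.10 ± 0.13 (0.684), which does not show that the siRNAs act alike on them.

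**Figure D5:**
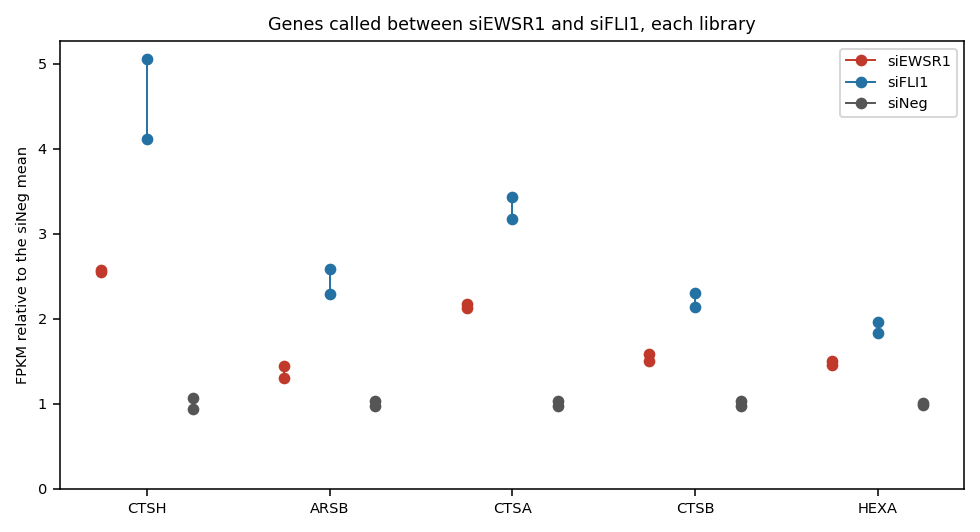
FPKM in each library divided by the gene's siNeg mean (y axis, linear, from 0) for the 5 members called between siEWSR1 and siFLI1; points are libraries, joined within a group. In each gene the siEWSR1 points lie below the siFLI1 points and above the siNeg points.

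Genes of the same pathway outside the symbol list were taken from lists compiled by function. These lists too were chosen with earlier results of these libraries known. Their counts are a description and no independent evidence for a change of the pathway. Over all tested genes, 33.2% were called higher and 31.0% lower with siEWSR1, and 35.7% and 29.6% with siFLI1, with median log2 changes of 0.01 and 0.04, and each list is given as counts beside these shares. Of 29 tested soluble hydrolases and cofactors, 18 rose and 6 fell with siEWSR1 and 19 rose and 5 fell with siFLI1, that is 62.1% and 65.5% higher and 20.7% and 17.2% lower, with median log2 changes of 0.62 and 0.78. ACP2, an acid phosphatase, had 19.0 and 18.7 FPKM with siEWSR1 and 19.0 and 19.7 with siFLI1, against 6.88 and 7.35 with siNeg. The heparan sulfamidase SGSH (1.30 and 1.50), the sulfatase GALNS (0.98 and 1.32) and the carboxypeptidase SCPEP1 (1.28 and 1.29) also rose. Those that fell with both were AGA, CTSV, DNASE2, EPDR1 and GGH, and PRCP fell with siEWSR1.

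Of 36 tested membrane proteins, 21 rose with each siRNA, and 2 fell with siEWSR1 and 1 with siFLI1, against 33.2% and 35.7% of all tested genes higher and 31.0% and 29.6% lower. The higher members made up 58.3% of the list with each siRNA. SIDT2, a lysosomal nucleic acid transporter, had 29.8 and 33.5 FPKM with siEWSR1 and 24.5 and 26.6 with siFLI1, against 6.11 and 6.83 with siNeg, at log2 changes of 2.21 and 1.90, above those of all 62 tested members. GPNMB, a glycoprotein that marks lysosomal stress, had 16.7 and 20.8 FPKM with siEWSR1 and 28.6 and 34.0 with siFLI1, against 6.46 and 5.91 with siNeg, and was lower with siEWSR1 than with siFLI1 (-0.73, adjusted p = 0.0371). The calcium channel MCOLN3 rose to 1.26 and 1.69 FPKM with siEWSR1 and 1.47 and 1.49 with siFLI1, against 0.0770 and 0.125 with siNeg. LAMP3, an inducible relative of LAMP1, fell by 1.51 and 1.52.

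Proton pump accessory, assembly and isoform genes outside the symbol rule rose in 8 and fell in 3 of 14 cases with siEWSR1. With siFLI1 they rose in 7 and fell in 2. The listed isoform gene TCIRG1 was not among those called. Over all tested genes 33.2% and 35.7% were higher and 31.0% and 29.6% lower, and the list is short. ROGDI, a subunit of the complex that joins V1 to V0 (1.15 and 1.53), and the assembly factor TMEM199 (0.60 and 0.84) rose, and NCOA7, which binds the pump, fell (-0.64 and -0.29). OXR1, its relative, fell with siEWSR1 (-0.69) and was not called with siFLI1 (-0.24). Of 40 genes that deliver enzymes to the lysosome, 16 rose and 4 fell with siEWSR1 and 18 rose and 4 fell with siFLI1, with medians of 0.14 and 0.16. The higher shares of 40.0% and 45.0% were near those of all tested genes (33.2% and 35.7%), so the higher count says little about the list. The lower share was 10.0% in each comparison, against 31.0% and 29.6%. IGF2R, the large mannose 6-phosphate receptor, had 21.3 and 23.0 FPKM with siEWSR1 and 18.9 and 20.3 with siFLI1, against 10.8 and 11.0 with siNeg. NAGPA (1.04 and 1.13) and GNPTG (0.84 and 0.99), of the enzymes that make the mannose 6-phosphate tag, and VPS18, a tethering subunit (1.03 and 1.21), rose too.

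In the autophagy and mTORC1 list, 22 of 55 were higher and 14 lower with siEWSR1, and 24 higher and 9 lower with siFLI1, with medians of 0.04 and 0.07. The higher shares of 40.0% and 43.6% and the siEWSR1 lower share of 25.5% were near those of all tested genes (33.2%, 35.7% and 31.0%), and the siFLI1 lower share was 16.4% against 29.6%. OPTN, an autophagy receptor, had 27.3 and 29.0 FPKM with siEWSR1 and 32.8 and 30.7 with siFLI1, against 6.31 and 5.89 with siNeg. RRAGB, a GTPase that recruits mTORC1 (1.41 and 1.20), MAP1LC3A (0.76 and 1.35) and WIPI1 (0.66 and 1.19) rose, and the last pair were lower with siEWSR1 than with siFLI1 (adjusted p = 0.0112 and 0.0423). The 4 are those with the largest called changes, and the lowest change of the list was that of the autophagy receptor CALCOCO2 (-0.91 and -0.87), followed with siEWSR1 by ATG16L1 (-0.79). LAMTOR1 was likewise called lower with siEWSR1 than with siFLI1. Over siNeg it was called lower with siEWSR1 and higher with siFLI1. Of 3 tested protease inhibitors, too few to set against a share, CST3 (0.62 and 0.94) and CSTB (0.43 and 0.67), which inhibit cysteine cathepsins, rose with both siRNAs, and SERPINB6 was called with neither (-0.08 and -0.12).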

How the data were processed

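The deposited files hold gene-level FPKM made by the authors for 6 libraries of total RNA. Per the submitters' processing notes, the tools were TopHat2 2.0.13, Cufflinks and Cuffdiff, on build hg19. The sources used here give no annotation, strand setting or kit. Since FPKM divides by the library total, abundant RNAs can shift the values of all other genes. No fragment counts are given: the deposited bounds imply 15159073 to 16298374 fragments per library, but only 41.1% to 43.7% of low genes came out whole within 0.01, which is too few to recover counts, and count models were not applied.

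Symbols on more than 1 row (380 of 26931) were summed, and no member was among them. A gene was tested when 2 or more of the 6 libraries reached an FPKM of 1, which 13043 did. Values entered limma 3.58.1 (R 4.3.3) as log2(FPKM + 0.5), in 1 fit over all 6 libraries, variances following the mean level, 3 residual and 3.39 prior degrees of freedom, two-sided p-values adjusted over all tested genes by Benjamini-Hochberg, threshold 0.05. Fold changes are on this scale, where the added 0.5 makes those of scarce genes too small. Errors are standard errors from the fit with 2 libraries per group. A gene called between groups exceeded the spread between libraries in that fit. The fit was also run on simulated data with independent libraries and far fewer changed genes than were called here. That run cannot vouch for the calls in these libraries.

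The members, the pathway and marker lists and the tests were chosen with earlier results of these data known. Values in every library are given for the members called with the 6 highest and up to 6 lowest changes over siNeg (where the higher group averaged an FPKM of 5 or more), those called between the siRNAs, the MiT factors, the 4 most abundant members and paralogous pump subunits (as shares); of each pathway list up to 4 called genes with the largest absolute change over siNeg are named, others after their values were seen. Replicate numbers were not taken as pairs: deviations of same-numbered libraries correlated at -0.14, -0.05 and 0.07.

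Promoters were taken from RefSeq on GRCh38.p14, 250 bases before to 50 after each start; 20 members had none there.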

Additional observations from a re-analysis of the deposited data

How the results depend on the processing

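With 16 alternatives (pseudocount, filter, scaling, variance trend, replicate block, samples in the fit, symbols on several rows, each library left out), 46 higher members with siEWSR1 became 34 to 46 and 44 with siFLI1 32 to 44, the fewest with a mean FPKM of at least 5, where 48 members were tested. Under that filter 2518 of all 8745 tested genes were higher with siEWSR1 and 2787 with siFLI1. In the main fit 4331 and 4656 of 13043 were. Leaving out 1 library at a time gave 37 to 44 higher and 4 to 6 lower with siEWSR1, 38 to 44 higher and 2 to 6 lower with siFLI1, and 0 higher and 0 to 4 lower between siEWSR1 and siFLI1. A left-out library leaves its group with 1, assumed to vary like the others. When that group was in the comparison over siNeg, fewer of all tested genes were called higher too. The 2 lower with siFLI1 came without siNeg replicate 2, siFLI1 replicate 1 or siFLI1 replicate 2. The 5 members lower with siEWSR1 than with siFLI1 became 1 with no filter and 2 with only the 4 libraries compared. Over all tested genes, 73 of 21935 and 99 of 13043 were then lower, against 401 of 13043 in the main fit. Fewer than 5 were also called without any 1 library. The 5 differences stayed below 0 in every alternative in which they were tested. With the replicate block, 44 were higher and 6 lower with siEWSR1, and 42 and 5 with siFLI1. Between the siRNAs 1 was higher, ATP6V1G2-DDX39B, and 5 were lower. Over all 13043 tested genes, 4242 were higher and 3948 lower with siEWSR1, 4530 and 3777 with siFLI1, and 57 and 262 between the siRNAs. The replicate numbers do not pair the libraries. CTSS turned to -0.33 with siEWSR1 under quantile normalization (adjusted p = 0.079), and the cause was not tested. Recomputed were the changes of single called members, of TFE3 over siNeg (not called in the main fit) and the medians. A gene counted as the same if it kept direction and side of the threshold. A median counted as the same if it moved by less than the members' median standard error. The same were 795 with siEWSR1, where 55 lost the call, 742 and 47 with siFLI1, and 66 and 28 between the siRNAs. The 8 untested symbols were left out by the FPKM filter. Of these, MITF rests on 12.8 to 31.2 implied fragments per library, CTSZ on fewer in each, and ATP6V1C2 on 46.3 to 64.3.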
